A study of Drosophila melanogaster with 3 samples.

Results

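The proteasome is the barrel-shaped protease that degrades proteins tagged with ubiquitin, and its subunit genes were examined here for binding by Lhr-eGFP at their promoters. Members were all protein-coding genes of Drosophila melanogaster Release 6 whose symbol begins with Prosalpha, Prosbeta, Rpn or Rpt followed by a digit. This gave 48 genes of 13968. Of these, 32 carry a plain subunit number and are called ubiquitous subunits here, and 16 are paralogs whose symbol goes on with T (for testis) or R (related), with or without a further digit. Their expression was not measured in this study.

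Lhr (Lethal hybrid rescue) is a chromatin protein, and it was mapped by chromatin immunoprecipitation and sequencing (ChIP-seq) in 3 biological replicate libraries that form a single group, labelled replicates 1, 2 and 3. Each library came from pooled male and female whole embryos, 0 to 14 h old, of 1 transgenic line that stably carries Lhr with a C-terminal GFP tag. Per the labels an anti-GFP antibody was used, although another label field lists Lhr as the antibody, on chromatin sonicated to 200 to 800 bp. A whole embryo mixes all cell types, so a peak does not show in which cells a promoter was occupied. The promoter that drives the transgene is not given in the sources used here, and no second genotype or treatment was compared.

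As background, the core of the proteasome is a stack of rings. The outer rings consist of Prosalpha subunits, which form the gate, and the inner rings consist of Prosbeta subunits, of which Prosbeta1, Prosbeta2 and Prosbeta5 carry the proteolytic sites. A regulatory cap sits on the core. Its base holds the ring of Rpt ATPases, which unfold substrates, the large scaffold subunits Rpn1 and Rpn2 and the ubiquitin receptors Rpn10 and Rpn13. Its lid holds the deubiquitinating enzyme Rpn11, its partner Rpn8 and a horseshoe of Rpn3, Rpn5, Rpn6, Rpn7, Rpn9 and Rpn12. Every cell needs these subunits in matched amounts. In the testis of Drosophila some subunits are known to have variants encoded by separate genes.

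The DNA under 4 of these peaks is printed as examples. They are the members of highest signal whose summit lay between annotated transcripts, among those on 2L, 3L, 3R and X. At Prosbeta3 and Rpn2 the summit lay nearer to the start of another gene, as given below. The sequences are from Release 6, 5′ to 3′ on the strand of the gene, with 50 bases on each side of the summit.
Prosbeta3, chr3R:9006327-9006427, minus strand: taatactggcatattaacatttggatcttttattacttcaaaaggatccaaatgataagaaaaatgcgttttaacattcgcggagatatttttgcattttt
Rpn1, chr3L:19914919-19915019, plus strand: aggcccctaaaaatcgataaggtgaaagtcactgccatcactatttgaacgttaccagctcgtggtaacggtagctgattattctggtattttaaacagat
Rpn11, chr2L:5059984-5060084, minus strand: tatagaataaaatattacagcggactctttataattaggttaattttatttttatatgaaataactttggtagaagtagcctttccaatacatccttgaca
Rpn2, chr3R:29153337-29153437, plus strand: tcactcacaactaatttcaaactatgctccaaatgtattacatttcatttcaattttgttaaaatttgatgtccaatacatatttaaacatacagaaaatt
None of the 4 stretches held the exact words of the DRE (TATCGATA, the element read by DREF and BEAF-32) or of M1BP (GGTCACACT), 2 elements of promoters that are active in most cells. Such words lay just outside the stretch at Prosbeta3 and Rpn1, as shown next.

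DRE and M1BP words of 12 members on the same arms are shown with 10 bases on each side, the word in capitals, on the strand of the gene. The first sites belong to genes with a summit in the final peak list.
Prosbeta3, M1BP, chr3R:9006424-9006452, minus strand: gacgcggcctGGTCACACTgaaagctaat
Rpn1, M1BP, chr3L:19915040-19915068, plus strand: ttcgccgcgcGGTCACACTgcaaaaagcg
Rpn9, M1BP, chr3R:23733247-23733275, minus strand: ctgttcggttAGTGTGACCagacggtgag
Rpn9, DRE, chr3R:23733419-23733446, minus strand: cccggttaaaTATCGATAttctcgcgga
Rpn7, M1BP, chr3R:22462018-22462046, minus strand: ataattttggGGTCACACTggtagtacat
Rpn7, DRE, chr3R:22462034-22462061, minus strand: cggtataattTATCGATAattttggggt
Prosalpha2, M1BP, chr3R:12431328-12431356, plus strand: ttcagcattcGGTCACACTgccgcccaat
Prosalpha6, DRE, chr2L:10221325-10221352, plus strand: ccgaatccctTATCGATAcccgatacac
Rpn3, DRE, chr2L:19051583-19051610, plus strand: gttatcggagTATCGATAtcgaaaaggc
The next sites belong to genes without a summit in that list.
Prosbeta2, DRE, chr3L:14999931-14999958, plus strand: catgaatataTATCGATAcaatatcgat
Prosbeta6, DRE, chr3L:16610445-16610472, minus strand: tatgtataccTATCGATAacgtttaagc
Rpn12, DRE, chr3L:16582802-16582829, plus strand: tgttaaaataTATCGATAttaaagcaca
Rpt5, DRE, chr3R:23752820-23752847, plus strand: tcgctgtcacTATCGATAagcgccggcg
Prosalpha4, M1BP, chrX:16276293-16276321, plus strand: cccatgctgcGGTCACACTgcggcatttc
Words were searched on both strands from 250 bp before to 50 bp after the first start site and, for bound genes, within 100 bp of the summit. The word of M1BP at Rpn9 is on the opposite strand and therefore reads in reverse complement. At the bound genes shown, the words sat 53 to 260 bp from the summit. At Rpn1 the M1BP word covered the start site itself, from position −1 to 7, where the start base is 0. Some words lay at the start of a neighbouring gene on the opposite strand. At Rpn3 the DRE word, −197 to −190, lay past the start of l(2)37Bb, 178 bp upstream. The DRE word at Rpt5, −46 to −39, covered the start of its neighbour, 42 bp upstream. The M1BP word at Prosbeta3, −216 to −208, lay close to the start of Iru, 230 bp upstream. The stretches searched at bound and unbound ubiquitous genes thus both held these words, and no paralog promoter held either.

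The final list of peaks, thresholded by the authors on the irreproducible discovery rate (IDR), is the upper end of a longer list of peaks combined over the libraries. A gene was called bound when any of its annotated start sites had a peak summit no farther than 500 bp away. By this rule 29.2% of all protein-coding genes were bound. Of the 32 ubiquitous subunits 22 were bound (68.8%), and of the 16 paralogs 0 were bound. The 22 bound genes had 22 distinct summits, so no peak was counted for more than 1 member.

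Each library was then taken alone through as many of its peaks of highest signal as the IDR list holds, which makes the lists equally long. The signal is the authors' own value of a peak, and it serves here only to rank peaks within a list. The lists hold no read counts, so the depth behind a peak is unknown. In replicate 1, 65.6% of the ubiquitous subunits were bound, beside 26.6% of all protein-coding genes. In replicate 2 it was 62.5%, beside 31.2%, and in replicate 3 it was 71.9%, beside 29.1%. No paralog was bound in any library. The ubiquitous subunits were bound at 66.7% ± 4.77 (SD, n = 3 libraries), against 28.9% ± 2.33 (SD, n = 3) for all protein-coding genes and 0% for the paralogs. The difference between ubiquitous subunits and paralogs was 66.7 ± 4.77 percentage points (SD, n = 3), with the ubiquitous subunits higher in 3 of 3 libraries and no overlap between the classes. An exact two-sided sign-flip permutation test over the libraries gave p = 0.25, the smallest value that 3 libraries allow. The 3 libraries had the same control alignment, and its part in these shares was not tested.

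**Figure D1:**
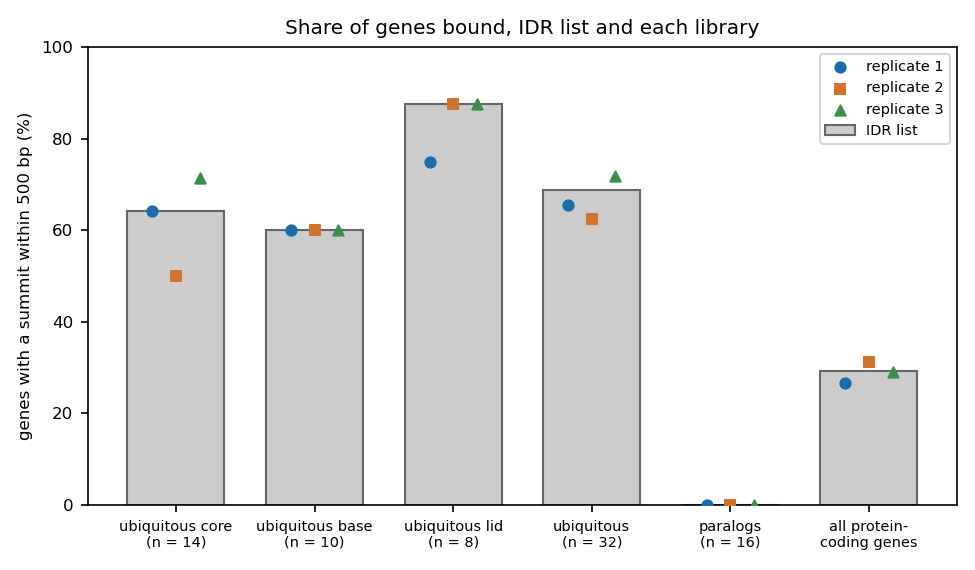
Share of bound genes (y axis, percent; summit at most 500 bp from a start) for classes of proteasome genes and for all protein-coding genes; bars give the IDR list and points the strongest peaks of each library, in lists of equal length. Ubiquitous core, base and lid subunits lie above all protein-coding genes (29.2%), and the 16 paralogs lie at 0.

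The core had 9 of 14 ubiquitous subunits bound (64.3%), the base 6 of 10 (60.0%) and the lid 7 of 8 (87.5%), beside 29.2% of all protein-coding genes. The lid subunit Sem1 falls outside the symbol rule and is not counted here. It was bound in no library. In the libraries the core was bound at 61.9% ± 10.9, the base at 60.0% ± 0 and the lid at 83.3% ± 7.22 (SD, n = 3). Core minus lid was −10.7, −37.5 and −16.1 percentage points in replicates 1, 2 and 3, and base minus lid was −15.0, −27.5 and −27.5 points, so the lid was highest in each library. An exact two-sided sign-flip permutation test over 3 libraries cannot give p under 0.25, so it could not decide on either difference. The adjusted p was 0.375 for both (same test, adjusted by Benjamini-Hochberg over 3 pairs). The core and the base differed by 1.9 ± 10.9 points (adjusted exact p = 0.75, permutation test, SD, n = 3), with the sign turned in replicate 2. Among peaks shared by replicates 1 and 3, without replicate 2, the order turned, with 64.3% of the core and 62.5% of the lid. The higher share of the lid was also lost when each summit was given only to the nearest gene. The lid then had 37.5%, the core 42.9% and the base 40.0%, beside 21.2% of all protein-coding genes. With the upper 50 percent of the IDR peaks the lid had 37.5%, the core 35.7% and the base 40.0%, beside 17.2% of all protein-coding genes.

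Within the base, the genes divided by their role, a division made after the values were seen. The Rpn genes of the base, Rpn1, Rpn2, Rpn10 and Rpn13, had a peak in 4 of 4 cases, both in the final list and library by library. Of the 6 Rpt ATPases only Rpt2 and Rpt4 had one, in the final list and among the strongest peaks of each library (33.3%, near the 29.2% of all protein-coding genes). The division was narrower in the whole relaxed lists of replicates 2 and 3, where 5 and 4 of the 6 Rpt genes had a summit. In replicate 1 it stayed at 2 of 6. The Rpn genes of the base had 4 of 4 each time. Over all protein-coding genes it was 42.6%, 54.5% and 45.2% in replicates 1, 2 and 3. Over base and lid together, 11 of 12 ubiquitous Rpn genes were bound (91.7%). Of the Prosalpha genes 5 of 7 were bound and of the Prosbeta genes 4 of 7.

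Prosalpha5, a subunit of the outer ring, had the highest signal of all members, 766.2 in the IDR list. This is rank 391, where rank 1 is the strongest peak. It ranked 840 in replicate 1, 305 in replicate 2 and 302 in replicate 3, with the summit 86, 86 and 92 bp upstream of the start site. The summits thus lay within 6 bp of each other, while replicate 1 ranked the gene lower than the other libraries did. Prosbeta3, a structural subunit of the inner ring, had rank 725 in the IDR list and ranks 681, 531 and 1095 in replicates 1, 2 and 3. Prosbeta1, a proteolytic subunit, had rank 769 and ranks 560, 1050 and 829. Replicate 3 was the lowest at Prosbeta3 and replicate 2 at Prosbeta1. Prosbeta7, another structural subunit, had rank 1215, with ranks 1257, 1077 and 1370 in the libraries. Prosbeta5, a proteolytic subunit, had rank 1932, with ranks 1534, 2336 and 1895.

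The other bound core genes were Prosalpha subunits with weaker peaks. Prosalpha6 had IDR rank 3522, Prosalpha7 rank 3575, Prosalpha3 rank 3585 and Prosalpha2 rank 3884. Prosalpha7 was found in all 3 libraries by this measure. The genes Prosalpha2, Prosalpha3 and Prosalpha6 were found there in replicates 1 and 3 alone. In replicate 2 they had summits farther down the whole list, at ranks 5832, 7950 and 5941. The core share was 64.3% in replicate 1, 50% in replicate 2, where Prosalpha4 was bound in addition, and 71.4% in replicate 3, where Prosbeta6 was.

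Among the base genes Rpn13, a ubiquitin receptor, was the strongest, with signal 593.1 and rank 765 in the IDR list. Its ranks were 963, 534 and 929 in replicates 1, 2 and 3, with the summit 108, 144 and 112 bp upstream. Rpn10, the other dedicated ubiquitin receptor, had rank 1415 and ranks 2033, 1258 and 1373. Its summit lay 6 bp downstream of the start site, and each library placed it downstream as well, by 30, 4 and 22 bp. Rpn1, a scaffold that docks ubiquitin-like proteins, had rank 1536 and ranks 1380, 1520 and 2378, with all 3 summits 77 to 83 bp upstream. Rpn2, the other scaffold, was weaker, with rank 3059 and ranks 2677, 2227 and 5008. Of the ATPases, Rpt4 had rank 1668 and ranks 1641, 1673 and 1883, and Rpt2 had rank 2959 and ranks 4065, 2446 and 2642. The base was the class whose calls were the same in each library, 6 of 10 every time.

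Of the lid genes Rpn6, a subunit that clamps the lid to the core, had the highest signal, 632.8, at rank 656. It ranked 1033, 421 and 742 in replicates 1, 2 and 3. Rpn9 had rank 1131 and ranks 1050, 1157 and 1113, the narrowest range of ranks among the 10 members of highest signal. Rpn5 had rank 1466 and ranks 1261, 2801 and 1242. Rpn8 followed at rank 2810, the deubiquitinating enzyme gene Rpn11 at rank 2968 and Rpn3 at rank 3434, each bound in 3 of 3 libraries. Rpn7 was the weakest bound member of all, with signal 202.1 at rank 4383. It ranked 2836 in replicate 2 and 4977 in replicate 3 and missed the strongest peaks of replicate 1, where it ranked 6406.

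**Figure D2:**
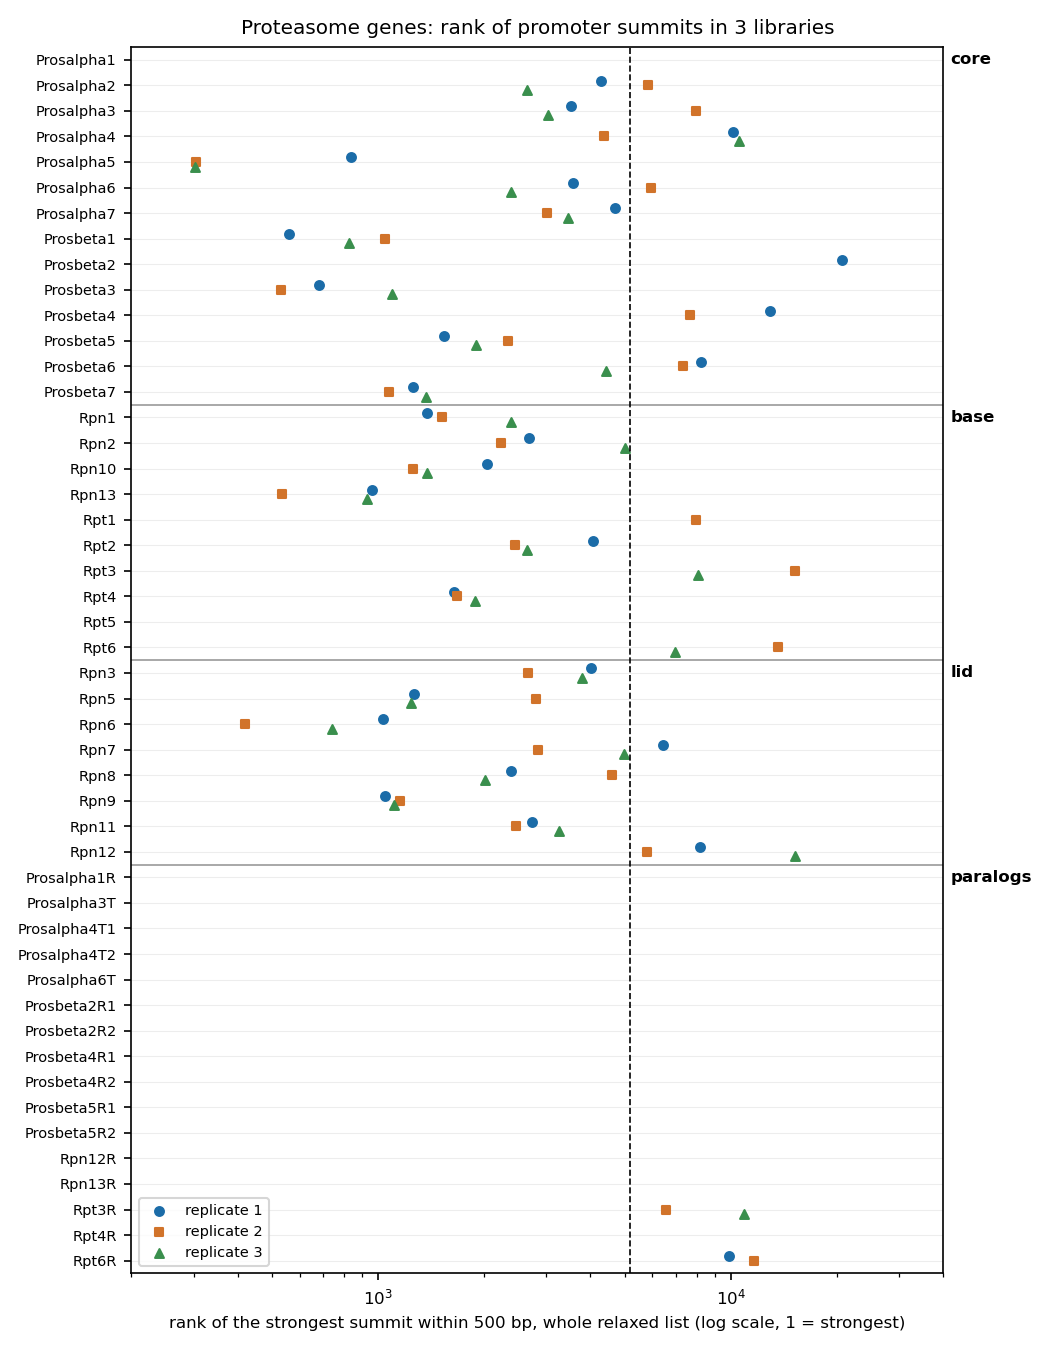
Rank of the strongest promoter summit in the whole relaxed list of each library (x axis, log scale, 1 is the strongest peak) for all 48 genes, grouped as core, base, lid and paralogs; the dashed line marks the length of the IDR list. Most ubiquitous genes have 3 points and most paralogs have none.

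Of the 10 ubiquitous genes that were not bound, Prosalpha4 and Prosbeta6 had a summit among the strongest peaks of 1 library. Prosalpha4 ranked 4369 in replicate 2 with signal 64.1, but 10141 in replicate 1 and 10569 in replicate 3. Prosbeta6 ranked 4441 in replicate 3 with signal 71.7, and 8233 and 7322 in replicates 1 and 2. In the combined relaxed list, from which the IDR list is the upper part, Prosbeta6 ranked 5825 and so lay just outside. The other unbound genes, Prosalpha1, Prosbeta2, Prosbeta4, Rpn12, Rpt1, Rpt3, Rpt5 and Rpt6, reached the strongest peaks of no library. Prosbeta2, the only proteolytic subunit that was not bound, had a single weak summit, at rank 20626 in replicate 1.

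The whole relaxed lists, which were deposited as peaks and background together, hold the strongest peaks used above and so repeat their calls. These longer lists separated the genes in the same direction. They placed a summit at 42.6%, 54.5% and 45.2% of all protein-coding genes in replicates 1, 2 and 3. For the ubiquitous subunits it was 84.4%, 90.6% and 84.4%, and 25 of 32 had a summit in all 3 lists. Only Prosalpha1 and Rpt5 had none. For the paralogs it was 6.25%, 12.5% and 6.25%, below all protein-coding genes in each library, and 14 of 16 had none. The exceptions were paralogs of the ATPase ring. Rpt3R ranked 6543 in replicate 2 and 10929 in replicate 3, and Rpt6R ranked 9864 in replicate 1 and 11628 in replicate 2. None of the 11 core paralogs had a summit in any relaxed list.

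The paralogs also lay far from peaks in general. The distance from their start site to the nearest IDR summit had a median of 27767 bp over 16 genes, from 1805 bp at Prosbeta2R2 to 69906 bp at Prosbeta4R2. The 10 unbound ubiquitous genes had a median of 3339 bp, from 1244 bp at Rpn12 to 12440 bp at Rpt3. For all 9883 unbound protein-coding genes the median was 9260 bp. Neighbouring genes share summits, and Prosbeta4R1 lies close to Prosbeta4R2 on 2L, so these distances are not independent. The gene nearest inside the limit of 500 bp was Rpn11, at 244 bp, and the gene nearest outside was Rpn12, so no member lay close to the limit.

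**Figure D3:**
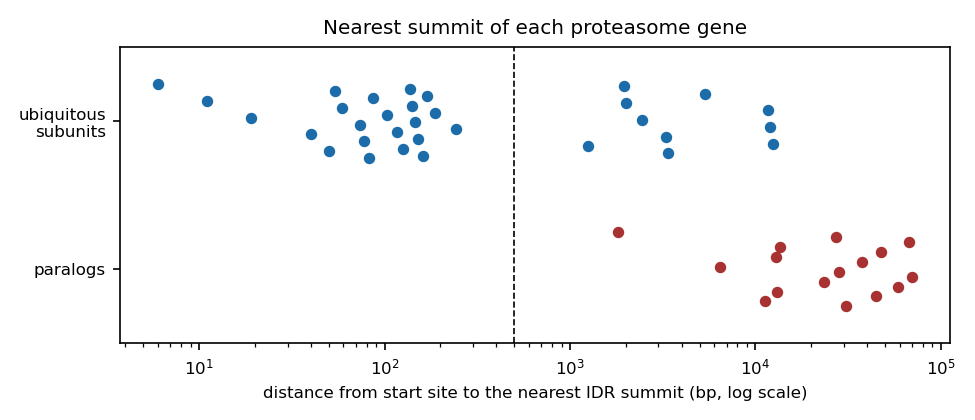
Distance from the start site to the nearest IDR summit (x axis, bp, log scale) for the 32 ubiquitous subunits and the 16 paralogs; the dashed line marks 500 bp, and points are offset vertically only to separate them. The ubiquitous genes fall to both sides of the line, with 22 below 244 bp or at it, and all paralogs lie beyond 1805 bp or at it.

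At the bound genes the summit sat just upstream of the start site, as it did at bound genes in general. The median position was −95.0 bp for the 22 members and −108.0 bp for all 4085 bound genes. Of the members 20 had the summit upstream (90.9%, beside 92.5% of all bound genes), and the exceptions were Rpn10 and Rpt2. At Rpt2 the position was 26, −47 and 2 bp in replicates 1, 2 and 3, so replicate 2 placed it upstream. Within 100 bp of the start lay 11 of the 22 summits (50%, beside 45.5%). Among the 18 members bound in all 3 libraries, the position of the summit varied between libraries by a median of 42.5 bp, from 6 bp at Prosalpha5 and Rpn1 to 147 bp at Rpn11. For all 3124 genes bound in 3 libraries the median was 39.0 bp. At Prosbeta7, Rpn6, Rpn8 and Rpn9 the start site nearest to the summit was not the first one of the gene. At Rpn8 it lay 2977 bp inside the gene from the first start.

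**Figure D4:**
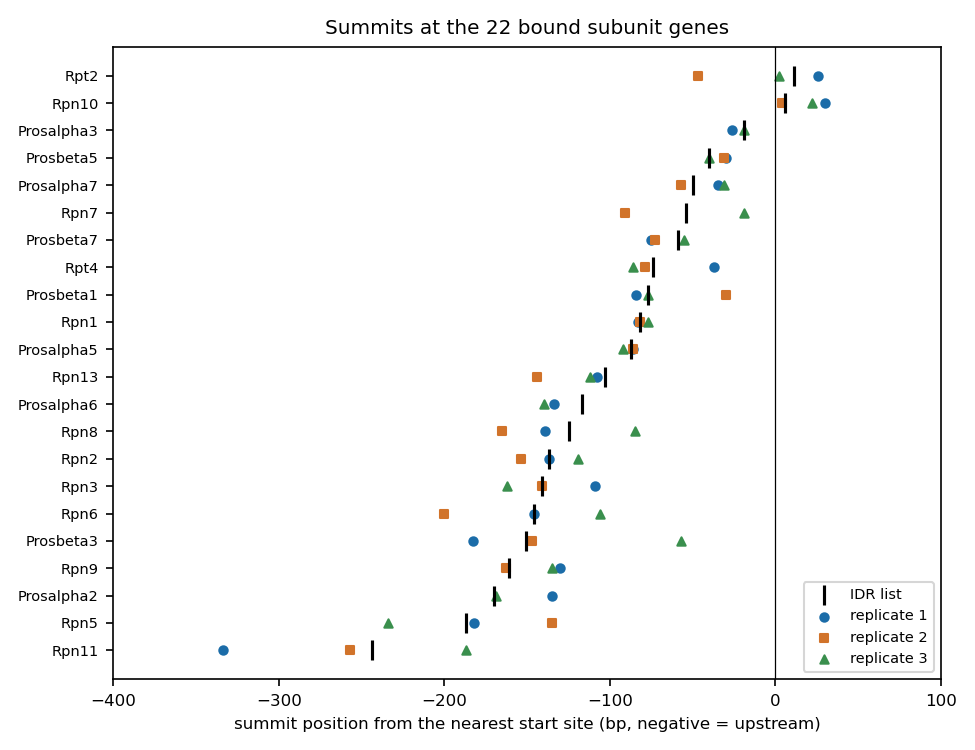
Position of the summit relative to the nearest start site (x axis, bp, negative is upstream) at the 22 bound subunit genes, in the IDR list (bars) and in the equally long list of each library (points). All IDR summits lie between −244 and 11 bp, and only Rpn10 and Rpt2 have theirs downstream.

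The strength and recurrence of the peaks at members were close to those at other bound genes. The median rank was 1800.0 for the 22 members and 2181.0 for all bound genes, and 12 members (54.5%) lay in the upper 50 percent of the list, beside 58.8% of all bound genes. Of the 22 members 18 (81.8%) were bound in 3 of 3 libraries and 4 in 2 of 3, beside 76.1% and 18.4% of all bound genes. The proteasome genes thus lay near the other bound genes in rank and recurrence, while the share of ubiquitous genes with a peak lay above that of all protein-coding genes.

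Many summits lay between the start sites of a proteasome gene and a neighbour. Of the 32 ubiquitous subunits 22 had a protein-coding gene on the opposite strand that started within 1000 bp upstream, which is called a divergent neighbour, and so had 4 of the 16 paralogs and 36.2% of all protein-coding genes. Of the 22 divergent ubiquitous genes 16 were bound (72.7%), beside 51.2% of all divergent genes. Of the 10 ubiquitous genes without such a neighbour 6 were bound (60.0%), beside 16.8% of all genes of that kind. The 6 were Prosalpha2, Prosalpha5, Prosbeta7, Rpn1, Rpn10 and Rpn11. The 4 divergent paralogs, Prosalpha1R, Prosbeta2R2, Prosbeta4R1 and Rpt3R, were not bound.

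The same summit lay within 500 bp of the start of another gene at 16 of the 22 members, and at 58.9% of all bound genes. Of the 22 members 13 were the gene nearest to their summit, beside 69.6% of all bound genes. For the other 9 the neighbour was closer. At Prosbeta1 the summit lay 44 bp from Rrp42, a subunit gene of the RNA exosome, and 77 bp from Prosbeta1. At Rpn5 it lay 78 bp from Hat1, a histone acetyltransferase gene, and 187 bp from Rpn5. At Rpn2 it lay 121 bp from Slbp, which encodes the protein that binds the stem-loop of histone mRNA, and 137 bp from Rpn2. Among the others, the neighbours were Iru at Prosbeta3, Npc1a at Prosalpha6, l(2)37Bb at Rpn3, ave at Rpn6 and mldr at Rpt4. At Rpn5 and Rpt4 the summit lay past the start of the neighbour, as the start sites are 109 and 58 bp apart. A summit this near to both starts cannot be given to one of the genes from its position alone. With each summit given only to the nearest gene, 40.6% of the ubiquitous subunits, 0% of the paralogs and 21.2% of all protein-coding genes were bound.

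Words of promoter elements were counted in all ubiquitous and paralog promoters. The DRE word was in 12 of 32 ubiquitous promoters (37.5%) and in 0 of 16 paralog promoters, beside 9.36% of all 13968 promoters of the same length. It was present in 8 of the 22 bound and in 4 of the 10 unbound ubiquitous genes. The M1BP word was in 5 ubiquitous promoters (15.6%), 4 of them bound, and in 0 paralog promoters, beside 6.04% of all. The word GAGAG of GAGA factor went the other way, with 3 ubiquitous promoters (9.38%) and 6 paralog promoters (37.5%), beside 29.8% of all. The stretch searched began 250 bp upstream and can hold the start of a divergent neighbour. Such a neighbour was present at 22 of the 32 ubiquitous subunits, 4 of the 16 paralogs and 36.2% of all protein-coding genes. The word counts were not split by it. These are counts of exact words and not of bound factors, and their differences were not tested.

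Within 100 bp of the 22 member summits 5 held the DRE word (22.7%) and 5 the M1BP word (22.7%), beside 10.5% and 10.3% of all 3202 summits at protein-coding promoters. Rpn7, the weakest bound member, held both. The antioxidant element TGACNNNGC, read by the Cnc and Maf-S proteins that raise proteasome genes under stress, was near 4 of the summits (18.2%, beside 7.03%), at Prosbeta3, Prosbeta7, Rpn1 and Rpn7. The TATA word TATAAA was near 6 (27.3%, beside 33.4%), GAGAG near 2 (9.09%, beside 17.3%) and CAGCTG near 2 (9.09%, beside 12.7%). CACGTG and the Zelda word CAGGTAG were near none, beside 2.5% and 0.5% of all summits. No word in the list contains another, but words can overlap. At Prosbeta3 and Rpn1 an antioxidant word on the opposite strand shares bases with the M1BP word printed above. The counts of these words are therefore not separate.

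Other genes of the pathway were counted from 3 lists, beside 29.2% of all protein-coding genes bound in the IDR list and 28.9% ± 2.33 in the libraries (SD, n = 3). Of the genes of proteasome assembly and regulation 7 of 9 matched genes were bound (77.8%, and 70.4% ± 6.42 in the libraries, SD, n = 3). Pomp, the maturation factor of the core, had the highest signal of these, 923.2 at rank 220 and 98 bp upstream, stronger than any subunit gene. PI31, which binds the core, ntc, its F-box partner, Uch-L5 and Usp14, deubiquitinating enzymes of the cap, and cnc and maf-S, the genes of the factors named above, were bound as well. Usp14 was bound in 1 of 3 libraries. Sem1, the smallest lid subunit, and REG, which encodes an alternative activator of the core, were bound in no library.

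Of the genes of ubiquitin supply and delivery 7 of 11 were bound (63.6%, and 69.7% ± 5.25 in the libraries, SD, n = 3), beside the same 29.2% and 28.9% of all protein-coding genes. TER94, the unfoldase that hands substrates to the proteasome, had rank 103, and Uba1, the E1 enzyme that activates ubiquitin, had rank 167. The gene p47, whose product is a cofactor of TER94, had rank 595, and the shuttle receptor gene Rad23 had rank 762. RpS27A and Ubi-p63E, which encode ubiquitin, and Ubqn, a shuttle receptor gene, completed the 7. The ubiquitin genes RpL40 and Ubi-p5E and the gene Npl4 were bound in no library, and rngo, a shuttle receptor gene, lacked a peak in the final list but had one in 2 of 3 libraries. Of the COP9 signalosome, a relative of the lid that removes Nedd8 from ubiquitin ligases, 4 of 8 matched genes were bound (50%, and 45.8% ± 7.22 in the libraries, SD, n = 3, again beside 29.2% and 28.9%). They were CSN3, CSN6, CSN7 and CSN8, of which CSN6 was bound in 1 of 3 libraries. CSN5, the catalytic subunit gene, was bound in 1 library only, and CSN1b, CSN4 and CSN1a in none.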

How the data were processed

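ChIP-seq of Lhr-eGFP was deposited as peak lists in narrowPeak layout. Per the text listings deposited with each library, relaxed lists were made from its alignment and a control alignment, and a final list was thresholded on the irreproducible discovery rate. The sources used here do not name an aligner, a peak caller or a threshold. The signal value is the authors' deposited score of a peak and ranks peaks within a list, and the summit is the peak start plus the deposited offset. The lists give no read counts, so depth is unknown and no interval for a peak was computed. The dm6 lists were used with Ensembl release 115 gene models and the Release 6 genome, the same assembly, and all peaks fell within its chromosomes. The dm3 lists were not used. All transcripts' start sites of a gene counted. Paralogs were symbols ending in T, T1, T2, R, R1 or R2 after the subunit number, and Rpn10 was placed in the base. Gene assignment and word search were tested on simulated data. Python 3.11.15 and NumPy 2.4.6 were used. The 10 bound members of highest signal, the weakest, and unbound members with a summit in some library are named with values in each library, and the division of the base by role was added later. The pathway names Ecm29, Ufd1-like and CSN2 matched no gene symbol. Members, lists and comparisons were chosen with earlier results of these data known. Nothing says whether the biological replicates share embryos, so the SD measures the spread between these libraries and the p-values refer to these libraries alone. Alternatives were other windows, stricter and combined lists, shared peaks, nearest-gene assignment, other class borders, and each library left out. The neighbour of 1 member is not reported here.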

Additional observations from a re-analysis of the deposited data

How the results depend on the processing

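The paralogs stayed at 0% in every alternative but the combined relaxed list, where Rpt6R gave 6.25%, and the ubiquitous subunits lay above all protein-coding genes in every alternative. With the upper 50 percent of IDR peaks, 25% of all members were bound, beside 17.2% of all protein-coding genes, with 37.5% of the ubiquitous subunits (a difference of 37.5 points from the paralogs), 35.7% of the core, 40.0% of the base and 37.5% of the lid. In the combined relaxed list it was 58.3%, beside 45.5%, with 84.4%, a difference of 78.1, and 85.7%, 70.0% and 100%. Among the 3336 peaks shared by all libraries it was 37.5%, beside 20.9%, with 56.2%, a difference of 56.2, and 42.9% of the core and 75.0% of the lid. When a summit counted for the nearest gene alone it was 27.1%, beside 21.2%, with 40.6%, a difference of 40.6, and 42.9%, 40.0% and 37.5%. A window of 200 bp left 75.0% of the lid, since Rpn11 lies at 244 bp, and 23.0% of all protein-coding genes, and 1000 bp changed no member. With Rpn10 in the lid, the base had 55.6%. Without one replicate, peaks shared by the other libraries were used, 3687 to 3980 of them, so fewer genes are bound by construction. All members then had 37.5% to 41.7%, ubiquitous subunits and their difference from the paralogs 56.2% to 62.5%, the core 42.9% to 64.3%, the lid 62.5% to 87.5% and the base 60.0%, beside 22.6% to 24.6% of all protein-coding genes. Lacking read counts, the lists cannot show whether an absent peak is absent or only too weak.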

Other observations

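The ubiquitous subunits divided by whether the subunit has a paralog in the list, a division made after the values were seen and not tested. Over all protein-coding genes the share was 29.2% in the IDR list and 28.9% ± 2.33 in the libraries (SD, n = 3). Of the 12 subunits that have at least 1 paralog 5 were bound (41.7%), namely Prosalpha3, Prosalpha6, Prosbeta5, Rpn13 and Rpt4. Of the 20 subunits without a paralog 17 were bound (85.0%), all but Prosbeta6, Rpt1 and Rpt5. In the libraries these shares were 38.9% ± 4.81 and 83.3% ± 5.77 (SD, n = 3), with 41.7%, 33.3% and 41.7% in replicates 1, 2 and 3 for the first and 80.0%, 80.0% and 90% for the second. In the IDR list the counts were 3 of 7 against 6 of 7 in the core, 2 of 4 against 4 of 6 in the base and 0 of 1 against 7 of 7 in the lid, where the first group is Rpn12 alone. A divergent neighbour was present at 10 of the 12 and at 12 of the 20. In the whole relaxed lists 9, 10 and 9 of the 12 had a summit, against 18, 19 and 18 of the 20. Over all protein-coding genes it was 42.6%, 54.5% and 45.2%. In those lists the base turned in replicates 2 and 3, with 4 of 4 and 4 of 4 against 5 of 6 and 4 of 6, and the lid had 1 of 1 against 7 of 7.

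By chromosome arm, a count made after the values were seen and not tested, the numbers are small. On X 1 of the 4 ubiquitous subunits was bound, Rpt4, and on 3L 2 of 5, against 8 of 9 on 3R, 8 of 10 on 2R and 3 of 4 on 2L. All 4 of these subunits on X, Rpt4 and the unbound Prosalpha4, Rpt3 and Rpt6, have a paralog. Over all protein-coding genes the arms had 28.5% bound on X, 30.7% on 3L, 29.4% on 3R, 29.3% on 2R and 27.6% on 2L.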
